A study of Saccharomyces cerevisiae with 118 samples.

Results

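Dubious open reading frames (ORFs) are stretches of the budding yeast genome that run from a start codon to a stop codon but that the annotation regards as unlikely to encode a protein. Of the 6664 nuclear ORFs in the deposited tables, 641 were chosen here because their annotation begins with this phrase and they lie outside chromosome XII. The choice used no measured value. They were split by position, leaving 416 that overlap another listed ORF on the opposite strand and 225 that do not, and they are set against the other 6023 nuclear ORFs. These 6023 include the ORFs of chromosome XII, 76 dubious ones among them. All 641 begin with ATG and end with a stop codon in the R64 genome. The RefSeq table of this assembly lists 111 of them.

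The study aged Saccharomyces cerevisiae of the mother enrichment program (MEP), in which estradiol activates a Cre recombinase driven by the SCW11 promoter that cuts floxed UBC9 and CDC20, so that newborn daughters stop dividing while the mothers age. The cells, wild type included, were diploids carrying Tom70-GFP and Rpl13a-mCherry on 1 of their 2 alleles, and mothers were labelled with biotin and purified before RNA extraction. The groups used here were wild-type mothers aged for 48 h or 24 h and log phase cells, which had no estradiol, on glucose (4, 4 and 3 samples), galactose (3, 3 and 3) and fructose (2, 2 and 2), with single samples on other carbon sources. Wild type aged for 72 h had 1 sample on glucose and 1 on acetate. In the media shifts, wild-type mothers spent 24 h on glucose or galactose and a further 24 h on the same or the other sugar (3 samples each). PGPD-HAP4 cells, heterozygous for HAP4 driven by the GPD promoter, were used unsorted on glucose in log phase and at 48 h (2 samples each). After 48 h on glucose they were also sorted into low, medium and high fractions of wheat germ agglutinin (WGA), which stains bud scars (2 samples each). The study's methods give sorting on GFP and WGA. The titles of the PGPD-HAP4 fractions of replicate E36 also carry GFP levels, high for low WGA and low for high WGA. Wild type had 1 sample for low and 1 for high. The carbon source table of 59 samples also holds PGPD-HAP4 cells at 24 h on glucose and cox9 gal80, cat8 and snf4 mutants on galactose. These enter the levels and the filter below, but no main comparison.

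Transcription in yeast is pervasive: promoters without a protein-coding gene, divergent initiation, antisense transcription and readthrough past the end of a gene all give RNA outside the annotated coding sequences. Much of that RNA is low in growing cells because chromatin restricts cryptic initiation and the nuclear exosome degrades short transcripts. A dubious ORF is therefore read here as a window on the strand it names. Reads in it can come from a transcript of its own, from a gene it overlaps on its own strand, from the 3′ end of a gene just upstream, or from antisense transcription through the gene on the other strand. How completely the libraries kept the strands apart was not tested. Reads opposite a highly expressed gene therefore need not all be antisense RNA.

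The sequences of 7 members show these settings, printed 5′ to 3′ on the strand of the member in R64, with the bases that another annotated feature also covers in capitals. YKL177W and YPL250W-A lie opposite STE3, which encodes the receptor for a-factor, and RPL36B, a ribosomal protein gene. YGR182C overlaps TIM13 on the other strand at its 3′ end. YMR013C-A and YPR160W-A lie wholly inside SEC59 (dolichol kinase) and GPH1 (glycogen phosphorylase) on the same strand, most of YGL088W is the small nucleolar RNA snR10, and YBR191W-A starts 8 bases after the ribosomal protein gene RPL21A. For YKL177W, YGR182C and YGL088W the 300 bases that include the overlap are shown.
YKL177W, chrXI:114356-114655, forward strand: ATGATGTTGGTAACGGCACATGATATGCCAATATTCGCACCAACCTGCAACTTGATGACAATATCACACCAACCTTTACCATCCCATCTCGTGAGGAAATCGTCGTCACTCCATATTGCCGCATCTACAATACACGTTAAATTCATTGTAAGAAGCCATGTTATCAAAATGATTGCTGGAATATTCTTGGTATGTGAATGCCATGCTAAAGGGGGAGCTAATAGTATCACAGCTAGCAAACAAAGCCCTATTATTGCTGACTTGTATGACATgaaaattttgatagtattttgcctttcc
YPL250W-A, chrXVI:75702-75989, forward strand: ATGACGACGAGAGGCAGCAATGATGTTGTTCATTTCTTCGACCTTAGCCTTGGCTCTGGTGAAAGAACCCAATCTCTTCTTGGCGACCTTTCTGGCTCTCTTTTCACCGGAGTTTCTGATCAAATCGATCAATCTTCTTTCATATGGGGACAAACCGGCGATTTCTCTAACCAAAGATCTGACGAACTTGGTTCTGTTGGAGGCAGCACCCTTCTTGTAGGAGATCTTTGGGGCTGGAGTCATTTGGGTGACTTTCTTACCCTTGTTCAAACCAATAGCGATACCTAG
YGR182C, chrVII:858551-858850, reverse strand: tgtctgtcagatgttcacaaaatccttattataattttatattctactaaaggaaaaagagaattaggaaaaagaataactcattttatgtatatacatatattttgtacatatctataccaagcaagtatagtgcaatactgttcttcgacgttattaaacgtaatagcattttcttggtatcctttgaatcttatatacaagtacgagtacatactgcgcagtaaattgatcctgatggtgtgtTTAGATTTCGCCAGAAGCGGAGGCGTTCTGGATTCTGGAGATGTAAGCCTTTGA
YMR013C-A, chrXIII:296471-296620, reverse strand: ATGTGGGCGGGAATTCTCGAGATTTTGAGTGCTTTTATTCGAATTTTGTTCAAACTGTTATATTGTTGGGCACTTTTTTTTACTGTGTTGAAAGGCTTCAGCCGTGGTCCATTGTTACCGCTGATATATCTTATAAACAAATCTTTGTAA
YPR160W-A, chrXVI:861934-862014, forward strand: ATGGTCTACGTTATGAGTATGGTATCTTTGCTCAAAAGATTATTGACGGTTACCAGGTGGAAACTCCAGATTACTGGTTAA
YGL088W, chrVII:345902-346201, forward strand: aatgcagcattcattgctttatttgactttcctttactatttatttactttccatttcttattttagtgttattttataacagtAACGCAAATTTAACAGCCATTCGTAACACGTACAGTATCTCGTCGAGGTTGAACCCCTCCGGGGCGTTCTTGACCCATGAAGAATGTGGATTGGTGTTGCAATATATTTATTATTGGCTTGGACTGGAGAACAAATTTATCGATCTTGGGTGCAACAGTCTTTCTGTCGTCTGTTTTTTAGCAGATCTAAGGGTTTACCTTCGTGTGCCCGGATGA
YBR191W-A, chrII:607149-607223, forward strand: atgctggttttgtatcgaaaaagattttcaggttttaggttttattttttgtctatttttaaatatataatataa

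Poly(A)+ RNA was read from one end in reads of 75 bases, and the deposited values are log2 counts scaled within each table, called normalised counts here once the log is removed. Counted reads per sample ranged from 2901884 to 15288342 over the 59 samples of the carbon source table and from 4542794 to 16704695 over the 24 of the media shifts. In the table of the sorted fractions the lowest library had 561582. Over all pairs of replicates the lowest Pearson r was 0.924. The study calls such samples biological replicates, but the labels do not say that they were separate cultures, so a p-value measures the spread between these samples, which may in part be technical. Genes that are switched off in diploids (11 in the list used) summed to 185 to 228 RPM (reads scaled to a common library total) on glucose at 48 h, against 73.2 to 84.1 in log phase; daughter-specific genes (8 in the list) summed to 1963 to 2210 at 48 h, against 3276 to 3674 in log phase. The part of either in the results below was not tested. In bulk samples, fewer cells of a type and less RNA per cell cannot be told apart.

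Most dubious ORFs were barely read. Their median level over the 59 samples, mutants included, was 1.06 RPKM (reads scaled to ORF length and library total), against 49.6 for the other ORFs. Members with an opposite-strand overlap had a median of 0.821 RPKM, and members without one had 3.09. Over the same 59 samples 15 members had no read in any sample and 190 were read in every sample, against 5559 of the 6023 other ORFs. A mean of at least 4 normalised counts was reached by 255 members (129 with an opposite-strand overlap and 126 without), and the tests below cover these. A member can pass this filter through the group in which it is high, so the 255 do not stand for all 641.

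A few members held much of the signal, and several of these share bases with a gene on their own strand. YDR154C, which shares 242 of its bases with CPR1 (cyclophilin) on the same strand, took 20.7% of all reads in dubious ORFs. YFR052C-A, which shares 143 bases with HXK1 (a hexokinase) on the same strand, took 9.59%. By length the highest were YDR154C, with a mean of 3650 RPKM, YBR191W-A with 2830, YFR052C-A with 1736, YDR133C with 1361 and YOR248W, which shares 296 bases with the cell wall gene SRL1, with 959. YBR191W-A is 75 bases long, the length of a read, and starts 8 bases after RPL21A. The part of reads reaching in from that gene was not tested.

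Dubious ORFs took a larger share of the reads as cells aged on glucose. It averaged 0.438 ± 0.014% in log phase (SD, n = 3), then 0.581 ± 0.0185% after 24 h (n = 4) and 0.673 ± 0.0323% after 48 h (n = 4). Every 48 h sample, from 0.639% to 0.717%, lay above every log phase sample, from 0.424% to 0.452%. A single library fixes its share closely by counting alone: the 95% Wilson interval of the highest 48 h share ran from 0.7118% to 0.7229%, which covers counting error only. The 2 fructose samples of each time gave 0.444% and 0.445% in log phase, with 0.549% and 0.577% after 24 h, then 0.671% and 0.688% after 48 h. On galactose the share averaged 0.584 ± 0.107% in log phase, 0.607 ± 0.0199% after 24 h and 0.673 ± 0.018% after 48 h (n = 3 each), and the log phase samples, from 0.482% to 0.695%, overlapped those at 48 h, from 0.658% to 0.693%. These shares are relative to all other counted RNA, so they do not say whether the RNA per cell changed.

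More of the members were also seen. When every library was scaled to 2900000 reads, the number of dubious ORFs expected to have at least 1 read was 297 ± 4.58 in log phase on glucose (SD, n = 3), 392 ± 27.3 at 24 h and 447 ± 31.5 at 48 h (n = 4 each). On galactose it was 301 ± 5.29 in log phase, 329 ± 2 at 24 h and 360 ± 12.1 at 48 h (n = 3 each). The 48 h glucose samples, from 424 to 493, did not overlap the 48 h galactose samples, from 349 to 373, whereas both sugars gave between 293 and 305 in log phase. More of the other 6023 ORFs were seen as well: at this depth 176 ± 13 of them were expected to have no read at 48 h on glucose, against 359 ± 22 in log phase, and 252 ± 11.6 at 48 h on galactose, against 346 ± 14.6 in log phase.

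**Figure D1:**
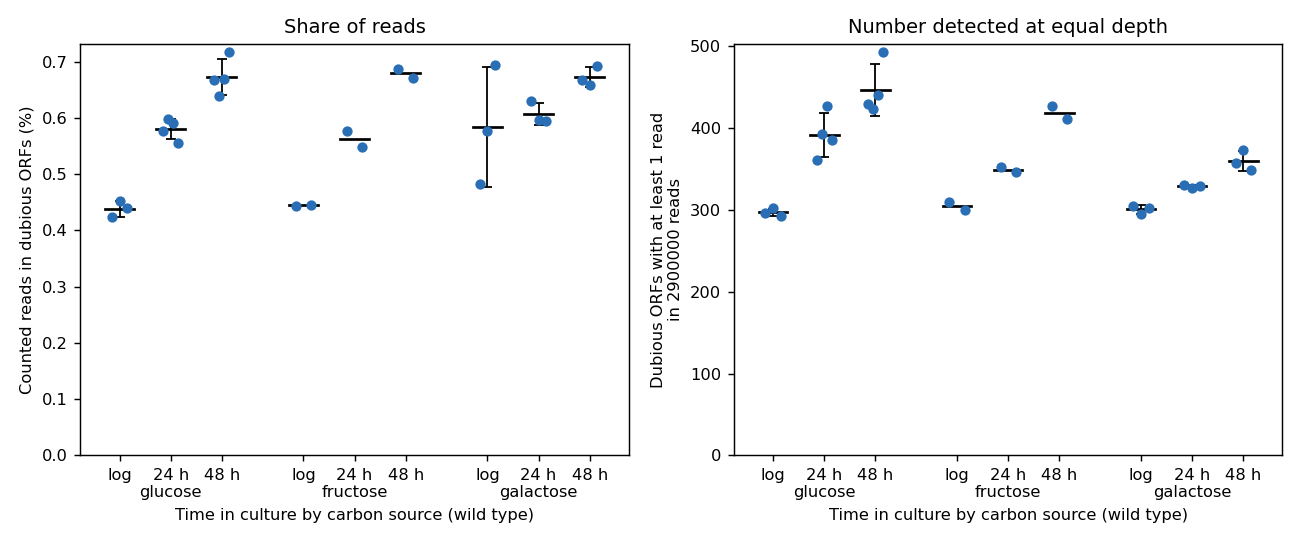
Share of counted reads in the 641 dubious ORFs (left, percent) and number of them with at least 1 read at 2900000 reads per library (right), for wild-type cells by carbon source and time. Points are samples, lines are means and bars are the SD where there are 3 or more samples; the 48 h glucose samples lie above all log phase glucose samples in both panels, from 0.639% to 0.717% and from 424 to 493 ORFs.

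Whether the level of a dubious ORF rose or fell on glucose depended for most of them on how the samples were put on a common scale. On quantile-normalised values, the scale on which the study tested, 17 members were called higher and 89 lower at 48 h than in log phase by limma at an adjusted p under 0.01, where 21.3% of all nuclear ORFs tested were called higher and 30.5% lower. On the values as deposited, 73 members were called higher and 10 lower, where 29.9% of all ORFs were called higher and 26.6% lower. The median change of the 255 members was -0.77 on the log2 scale after quantile normalisation and 0.55 as deposited, whereas that of the other ORFs was -0.11 and 0.02. Quantile normalisation forces the distribution of values to be the same in every sample, and the median of all ORFs was -0.12 after it and 0.04 before it (-0.13 and 0.02 for fructose, -0.13 and 0.05 for glucose-glucose over log phase, -0.20 and 0.00 for low over high WGA). In RPM on the log2 scale, added after seeing the data, 135 members were called higher and 3 lower, where 61.3% of all ORFs were called higher and 8.08% lower. No direction is therefore given for dubious ORFs as a group, and the changes of single members are given on both scales.

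**Figure D2:**
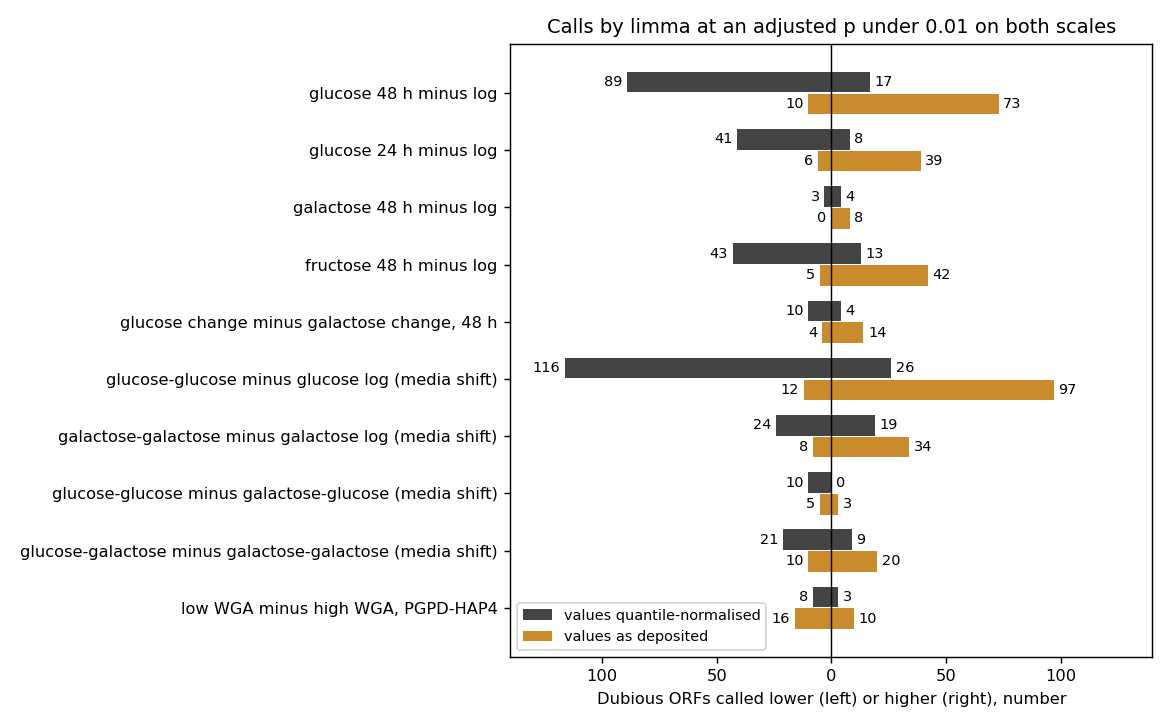
Numbers of dubious ORFs called higher (right of 0) and lower (left of 0) by limma at an adjusted p under 0.01 in each comparison, with values quantile-normalised (dark) and as deposited (ochre). On glucose at 48 h the balance turned over with the scale, 17 higher and 89 lower after quantile normalisation and 73 higher and 10 lower on the deposited values.

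The members called on both scales were fewer: 27, of which 16 rose, 9 fell and 2 (YDR118W-A and YGL165C) were called in opposite directions. Of all ORFs tested, 18.8% were called higher on both scales and 20.4% lower on both. Of the 16 that rose, YKL177W, YKL202W and YGR182C overlap an ORF on the opposite strand, and none of the 9 that fell does. On the deposited values 26 of the 129 tested members with an opposite-strand overlap rose and 0 fell (47 had an unadjusted p under 0.05), and 47 of the 126 others rose and 10 fell. After quantile normalisation 3 of the 129 rose and 43 fell, and 14 of the 126 rose and 46 fell.

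On the deposited values the median change of members differed with their level, whereas after quantile normalisation the members' median was negative (-0.77 on glucose and -0.36 on galactose). Among ORFs with a mean log2 level between 2 and 4, the median change from log phase to 48 h on glucose was 0.87 for 81 members with an opposite-strand overlap, 1.38 for 42 members without one and 1.95 for 170 other ORFs. Between 4 and 6 it was 0.26, 0.36 and 1.74 over 34, 34 and 263 ORFs. Between 6 and 8 it was 0.63, 0.33 and 0.44 over 9, 25 and 914 ORFs. At a level of 8 and over the medians were -0.10, -0.01 and -0.12. On galactose the medians between 2 and 4 were 0.31, 0.50 and 1.19, and between 6 and 8 they were 0.53, 0.38 and 0.08. These are medians over ORFs, given as a description with no test, and the members had smaller medians than the other ORFs between 2 and 6 but not at every level above it. Unlike the members, the other ORFs include chromosome XII. The study reports an average rise with age on glucose for its genes beyond the ribosomal DNA, minimal on galactose. The part of these genes in the medians was not tested.

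**Figure D3:**
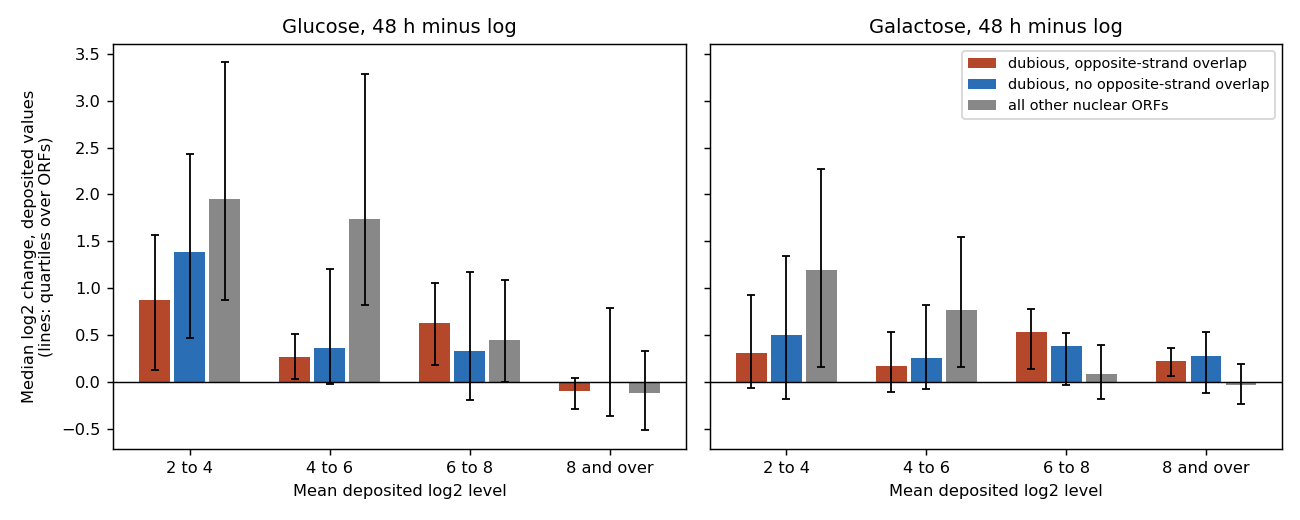
Median log2 change between 48 h and log phase on the deposited values (bars; black lines are quartiles over ORFs) by mean deposited log2 level over the 59 samples, for dubious ORFs with and without an opposite-strand overlap and all other nuclear ORFs, on glucose (left) and galactose (right). Between 2 and 6 the dubious ORFs have smaller medians than the other ORFs (0.26 and 0.36 against 1.74 between 4 and 6 on glucose); the members' median is negative on quantile-normalised values.

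Members were also grouped by position relative to neighbours, without matching the groups for level. The 62 tested members that overlap another ORF on their own strand had a median change of 0.17 on glucose at 48 h on the deposited values, the 55 with an own-strand ORF ending within 300 bases upstream had 0.40, and the 138 with neither had 0.95. After quantile normalisation these medians were -0.45, -1.16 and -0.74, so their order depends on the scale as well. Across members, the change on glucose correlated with that of the ORF overlapped on the own strand (Spearman's rho = 0.89, n = 62), less with that of the ORF just upstream (rho = 0.49, n = 55), and little with that of the opposite-strand partner (rho = 0.12, n = 129). These are correlations across ORFs, which are not independent replicates and share the same libraries, and where 2 ORFs overlap on 1 strand a read can be counted in both. The partner was read 14.4 times as strongly per length as the member in the median pair.

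The reads of antisense members were also set against those of the genes opposite. For 13 members lying under highly expressed genes such as CDC19, SSA1, SSB1 and RPS2, the reads on the member's strand amounted to between 0.0201% and 0.0471% of the reads of those genes in log phase on glucose. At 48 h on glucose they amounted to between 0.0282% and 0.404%, and the sample of replicate E30_1 held the highest value. No wild-type log phase sample of E30_1 was in the comparison, and the PGPD-HAP4 log phase sample of that replicate had 0.336%. In the media shifts the same 13 members had 0.107% to 0.25% in log phase on glucose. The glucose-glucose samples had 0.133% to 0.313%, so those groups overlapped. These percentages are of reads and are not scaled to length. The wild-type 48 h sample of E30_1 also had the highest median change of members with an opposite-strand overlap, 1.04 against 0.38 to 0.50 in the other 3 samples. At 24 h the E30_1 sample had 0.93 against 0.29 to 0.43. Both were set against the mean of log phase samples of other experiments, and the other samples against their own. The median of the 48 h E30_1 sample after quantile normalisation was negative, as in the other samples. Its members without an opposite-strand overlap had a median of 0.69, within the 0.33 to 0.73 of the others. The part of this difference between libraries, or of incomplete strand separation, in the antisense values was not tested.

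Among antisense members that rose on glucose, YKL177W stood opposite STE3 on chromosome XI and was close to silent in log phase. It had 17 to 22 reads in each 48 h sample and at most 1 read in each log phase sample, which gives a pooled ratio of 63.8 with a 95% counting interval of 11.1 to 2554. Its normalised counts at 48 h were 13.9, 16.7, 19.2 and 15.5, and the groups did not overlap. Non-overlap was a condition of the rule that named members in each comparison, except for the difference between glucose and galactose changes. It was therefore fixed by the choice and adds no support. STE3 itself rose by 2.01 ± 0.29 (log2, SE; adjusted p = 0.000186 by limma on quantile-normalised values), so both strands of this locus were higher. YKL202W, which covers 473 bases opposite MNN4 (a regulator of cell wall mannan), had normalised counts of 147, 141, 127 and 171 at 48 h, against 33.4, 24.7 and 13.5 in log phase. It rose by 1.34 ± 0.25 after quantile normalisation (adjusted p = 0.00101 by limma) and by 2.70 as deposited, and MNN4 rose by 1.71 ± 0.13.

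YGR182C (chrVII:858551-858904) rose with the gene upstream of it, while the gene opposite fell. It overlaps TIM13, which encodes an import chaperone of the mitochondrial intermembrane space, by 54 bases and starts 158 bases after QCR9, a subunit of respiratory complex III on its own strand. It had normalised counts of 1114, 756, 956 and 978 at 48 h, against 129, 154 and 211 in log phase, and rose by 2.27 ± 0.16 (adjusted p = 2.3e-06 by limma, quantile-normalised; 2.54 as deposited). Every aged sample exceeded every log phase sample, as the naming rule required. QCR9 rose by 1.96 ± 0.13 (adjusted p = 2.13e-06), whereas TIM13 changed by -0.45 ± 0.10 (adjusted p = 0.00359).

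Of the members named for a rise, 4 that follow or overlap a gene on their own strand rose, as did that gene. Over all 55 tested members with an own-strand ORF just upstream, 31 (56.4%) had a difference of the same sign as it on the deposited values, and 50 of the 62 (80.6%) with an own-strand overlap did so. YMR103C lies 155 bases after YPK2, a protein kinase gene, and had 675, 436, 536 and 505 normalised counts at 48 h, against 95, 94.4 and 63.9 in log phase. It rose by 2.11 ± 0.16 and YPK2 by 2.12 ± 0.18 (adjusted p = 3.79e-06 and 7.66e-06 by limma, quantile-normalised). YPR077C shares 356 bases with YPR078C and had 63.0, 49.2, 63.8 and 66.2 normalised counts at 48 h, against 5.22, 2.25 and 1.23 in log phase. These log phase values came from 8 reads in all. It rose by 2.95 ± 0.46 and YPR078C by 2.96 ± 0.53. YFR052C-A, at the 3′ side of HXK1, had 1782, 1017, 755 and 1000 normalised counts, against 234, 197 and 225, and rose by 2.13 ± 0.25 next to 2.17 ± 0.30 for HXK1. YPR160W-A, inside GPH1, had 144, 40.3, 47.6 and 50.7 normalised counts, against 6.26, 6.74 and 4.91, and rose by 1.65 ± 0.45 while GPH1 rose by 3.64 ± 0.33. For each of these 4 members the groups did not overlap, as the naming rule required, and each was called higher on both scales.

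YOL160W (chrXV:14313-14654) has no overlapping ORF on either strand and no own-strand ORF ending within 300 bases upstream. It had 42.5, 38.3, 37.4 and 46.5 normalised counts at 48 h on glucose, against 5.22, 5.62 and 2.46 in log phase, and rose by 1.49 ± 0.33 (adjusted p = 0.00261 by limma, quantile-normalised; 3.30 as deposited). It lies within 20 kb of a chromosome end, where 66 of the 641 members lie and 8 were tested. Of those 8, 2 were called higher after quantile normalisation and 4 on the deposited values, where 21.3% and 29.9% of all ORFs were, and 0 were called lower on either scale.

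Of the 9 members that fell on both scales, 7 share bases with a gene on their own strand, and YBR191W-A and YEL068C start 8 and 210 bases after one. YMR013C-A, inside SEC59, had 34.4, 42.3, 23.3 and 29.6 normalised counts at 48 h, against 57.4, 60.7 and 49.1 in log phase, and fell by 2.27 on the log2 scale (SE 0.25, adjusted p = 3.83e-05) after quantile normalisation and by 0.81 as deposited (adjusted p = 0.0099 by limma). SEC59 fell by 0.68. YHR073W-A, inside OSH3 (an oxysterol-binding protein homologue), had 67.4, 54.1, 39.5 and 52.1 normalised counts, against 92.9, 109 and 99.5, and fell by 2.12 after quantile normalisation and by 0.94 as deposited. YBR191W-A, just after RPL21A, averaged 1090 ± 70 normalised counts at 48 h (SD, n = 4) and 2906 ± 239 in log phase (n = 3), and fell by 1.17 after quantile normalisation and by 1.41 as deposited. RPL21A fell by 0.67.

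Other falls were called after quantile normalisation alone. YER076W-A had 2.93, 5.90, 2.02 and 4.22 normalised counts at 48 h, against 9.39, 16.9 and 8.60 in log phase, and fell by 3.38 (adjusted p = 0.00014 by limma), whereas its deposited change of -1.67 had an adjusted p of 0.0137. YGR269W (18 bases opposite HUA1) had 2.93, 5.90, 7.08 and 6.33, against 10.4, 13.5 and 9.83, and YJR146W (43 bases shared with HMS2) had 5.13, 9.83, 10.1 and 7.74, against 18.8, 12.4 and 19.7. Their groups did not overlap, as the naming rule required, but the adjusted p of the deposited change by limma was 0.0451 for YGR269W and 0.0247 for YJR146W. YOL099C, opposite the kinase gene PKH2, turned round with the scale: its normalised counts were 27.1, 25.6, 22.3 and 24.6 at 48 h, against 19.8, 20.2 and 19.7, and the log2 change was 0.32 as deposited (adjusted p = 0.213) but -1.40 after quantile normalisation (adjusted p = 0.000363).

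**Figure D4:**
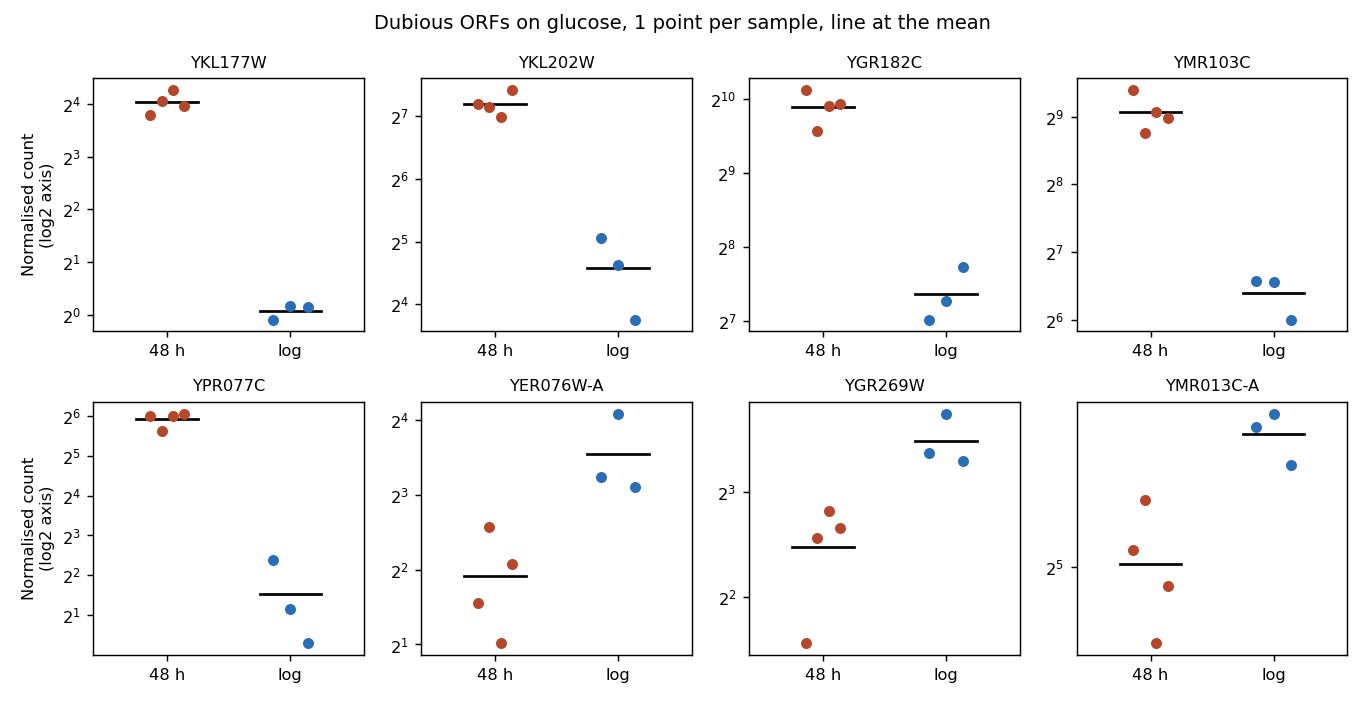
Normalised counts (log2 axis, a separate range in each panel) of 8 dubious ORFs in wild-type cells on glucose at 48 h (left in each panel, 4 samples) and in log phase (right, 3 samples); points are samples and lines are means. In all 8 the groups do not overlap, as the naming rule required. YKL177W, YKL202W, YGR182C, YMR103C and YPR077C are higher at 48 h on both scales, YMR013C-A is lower on both, and YER076W-A and YGR269W are lower with an adjusted p under 0.01 after quantile normalisation only.

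At 24 h on glucose the counts were smaller and turned over with the scale in the same way. After quantile normalisation 8 members were called higher and 41 lower, where 14.3% of all ORFs were called higher and 17.4% lower. On the deposited values 39 were called higher and 6 lower, with 18.5% and 17.1% of all ORFs. The members' median change was -0.42 after quantile normalisation and 0.39 as deposited. The 11 members called on both scales kept one direction, 7 higher and 4 lower (12.2% and 11.7% of all ORFs). The log phase samples are those of the 48 h comparison, so the 2 comparisons share them.

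On galactose few ORFs of any kind were called, members included. At 48 h 4 were called higher and 3 lower after quantile normalisation (3.35% and 1.92% of all ORFs), and 8 higher and 0 lower on the deposited values (4.93% and 1.89% of all ORFs; 72 members had an unadjusted p under 0.05). Leaving out any single 48 h sample, or the log phase sample of E34, left 0 calls, and leaving out the log phase sample of lane6854 or E56 left 13 and 3. YMR304C-A, which shares 68 bases with the cell wall gene SCW10, had 2076, 2162 and 2252 normalised counts at 48 h, against 656, 861 and 996 in log phase. It rose by 1.37 ± 0.16 (adjusted p = 0.00245 by limma, quantile-normalised) and SCW10 by 1.25 ± 0.09. YIL047C-A, which shares 353 bases with SYG1, had 458, 479.8 and 500.1, against 266, 252 and 247, and rose by 0.83 ± 0.10. YOL160W rose here too, with 12 to 16 reads in each 48 h sample and at most 2 in each log phase sample, a pooled ratio of 15.5 (95% counting interval 5.64 to 59.4). Each of these groups was separate, as the naming rule required. YML089C, YNL043C and YMR153C-A were called lower after quantile normalisation, by 1.82, 1.64 and 1.33, and their deposited changes of -0.97, -0.89 and -0.44 had adjusted p-values of 0.0441, 0.0391 and 0.235.

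On fructose, with 2 samples in each group, fewer members were called than on glucose. After quantile normalisation 13 members were called higher and 43 lower (13.8% and 15.9% of all ORFs), and on the deposited values 42 higher and 5 lower (19.7% and 15.3%). Leaving out either 48 h sample left 0 calls, and leaving out the log phase sample of lane6854 or E34 left 12 and 10. YGR182C had 1318 and 1106 normalised counts at 48 h, against 238 and 272 in log phase, and rose by 2.14 ± 0.14. YMR103C had 566 and 473, against 125 and 90, and rose by 1.91 ± 0.17. YPR077C had 57 to 61 reads in the 48 h samples and 3 in both log phase samples together, a pooled ratio of 39.3 (95% counting interval 13.1 to 193). YPL250W-A, antisense within RPL36B, had 6.24 and 3.77 normalised counts, against 14.8 and 13.5, and its change was -3.25 ± 0.52 after quantile normalisation (adjusted p = 0.00351 by limma) and -1.55 as deposited (adjusted p = 0.034). On glucose, replicate E30_1 held the highest values of YPL250W-A at both ages, with 54.1 normalised counts at 24 h and 45.8 at 48 h.

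The test of whether the change from log phase to 48 h differed between glucose and galactose called 4 members with a higher change on glucose and 10 with a lower one after quantile normalisation, where 8.52% and 6.56% of all ORFs were called. On the deposited values it called 14 higher and 4 lower (12.9% and 11.7% of all ORFs). Leaving out the galactose log phase sample of lane6854 or E34 moved the 14 calls to 26 and 8. YML089C, part of a convergent pair of dubious ORFs with YML090W, was almost unread in log phase on glucose, with 1 read over the 3 samples, and had 17.6, 7.86, 9.11 and 9.15 normalised counts at 48 h. On galactose it had 16.5, 17.3 and 15.1 at 48 h, against 23.4, 33.1 and 41.8 in log phase, and the difference between the changes was 3.90 ± 0.58 (adjusted p = 0.000472 by limma, quantile-normalised; 4.27 as deposited). YFR052C-A had 5741, 4574 and 4953 on galactose at 48 h, against 5488, 9026 and 16695 in log phase, next to its rise on glucose, a difference of 2.81 ± 0.46. YGR182C had 1500, 1251 and 1458 on galactose at 48 h, against 508, 1112 and 1421 in log phase, and its difference was 1.72 ± 0.39. YDR344C and FYV1, which lie 507 and 120 bases after HXT3 (a glucose transporter) and SES1 (seryl-tRNA synthetase), had the lower change on glucose. Their differences were -2.48 ± 0.51 and -1.61 ± 0.28 after quantile normalisation, and their deposited differences of -1.62 and -0.88 had adjusted p-values of 0.014 and 0.0436.

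The per-sample medians put the other cultures on the same footing, each aged sample against the mean of log phase cells of its strain and medium. On the deposited values the members' median change at 48 h was between 0.42 and 0.85 in the 4 glucose samples, 0.41 and 0.56 on fructose, 0.50 on sucrose (1 sample), 0.28 on raffinose with galactose (1 sample), 0.11 to 0.42 on galactose, 0.18 on raffinose and 0.11 on acetate (1 sample each). Wild type at 72 h gave 0.51 on glucose and 0.25 on acetate (1 sample each). PGPD-HAP4 on glucose at 48 h gave 0.18 and 0.27, below the 4 wild-type samples (a difference that was not tested). Members without an opposite-strand overlap had 0.51 and 0.45, and members with one had -0.12 and 0.18. The references differ: wild type of E30_1 was set against log phase samples of other experiments, PGPD-HAP4 of E30_1 against its own. The part of this in the difference was not tested. After quantile normalisation the median of every one of these samples was negative, from -0.22 on galactose to -0.87 on glucose at 72 h.

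In the media shifts the comparisons over log phase could be made again in other samples. After 24 h and a further 24 h on glucose, 26 members were called higher and 116 lower than in log phase after quantile normalisation, where 27.7% and 38.9% of all ORFs were called, and 97 higher and 12 lower on the deposited values (36.8% and 31.6%). On galactose throughout, 19 were called higher and 24 lower after quantile normalisation (18.6% and 21.2% of all ORFs), and 34 higher and 8 lower on the deposited values (21.5% and 20.7%). Without the galactose log phase sample of E53 or E53_2, 24 and 25 were called. At 2900000 reads the glucose-glucose samples showed 498, 481 and 462 dubious ORFs, against 332, 362 and 323 in log phase on glucose, and the galactose-galactose samples showed 404, 384 and 376, against 373, 389 and 336 in log phase on galactose. The first pair of groups was separate and the second overlapped. The share of reads in the glucose-glucose samples was 0.897%, 0.680% and 0.676%, and the first of these held 0.250% in YNL143C alone. Without YNL143C the 3 shares were 0.646%, 0.678% and 0.671%, against 0.431%, 0.450% and 0.435% in log phase. The galactose-galactose samples had 0.702%, 0.673% and 0.698%, against 0.637%, 0.613% and 0.623% in log phase on galactose, and these groups were separate, unlike those on galactose in the carbon source table.

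Cells on the same second sugar were compared by the sugar of their first 24 h. With glucose second, starting on glucose as opposed to galactose gave 0 members called higher and 10 lower after quantile normalisation (2.77% and 1.75% of all ORFs), and 3 higher and 5 lower on the deposited values (5.38% and 3.24%). The 0 holds for limma at an adjusted p under 0.01; 66 members had an unadjusted p under 0.05, and the fit that uses replicate labels as a block called 1 higher and 23 lower. Leaving out the glucose-glucose sample of E53_2, E53 or E53_3 gave 16, 5 and 1 calls, and leaving out the galactose-glucose sample of E53_2 or E53_3 gave 0 and 1. YCR013C, 595 bases of which lie opposite PGK1 (phosphoglycerate kinase), had 49.3, 48.0 and 36.5 normalised counts in glucose-glucose samples, against 112, 98.4 and 72.0 in galactose-glucose samples, and fell by 1.50 after quantile normalisation (adjusted p = 0.00136 by limma) and by 1.07 as deposited. OPI11, 324 bases opposite the ribosomal protein gene RPL43A, had 27.1, 25.6 and 19.4, against 48.5, 56.6 and 41.0, and YDL023C, opposite GPD1 (glycerol-3-phosphate dehydrogenase), had 14.8, 13.2 and 6.08, against 32.3, 26.9 and 21.7. The groups were separate for all 3, as the naming rule required. By limma the adjusted p of the deposited change was 0.0115 for OPI11 and 0.0271 for YDL023C. GPD1 fell by 0.52 (adjusted p = 0.00119), whereas the changes of PGK1 (-0.17 ± 0.09) and RPL43A (-0.19 ± 0.08) did not pass the threshold.

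With galactose second, starting on glucose gave 9 members called higher and 21 lower after quantile normalisation (12.8% and 13.6% of all ORFs), and 20 higher and 10 lower on the deposited values (16% and 17.4%). Leaving out the glucose-galactose sample of E53 or E53_3, or the galactose-galactose sample of E53_2, gave 17, 16 and 18 calls. YDR406W-A, which begins with a 1-base overlap at the end of the drug transporter gene PDR15, had 62.5, 106 and 73.1 normalised counts in glucose-galactose samples, against 7.34, 27.5 and 20.3 in galactose-galactose samples. It rose by 1.76 ± 0.44 (adjusted p = 0.00739 by limma, quantile-normalised) and PDR15 by 1.01 ± 0.06. YBR056W-A, 159 bases of which lie opposite another dubious ORF, had 226, 205 and 213, against 99.1, 97.8 and 78.1, and rose by 0.96 ± 0.12 (1.23 as deposited). YBR116C, which shares 335 bases with TKL2 (transketolase), had 139.6, 144 and 157, against 79.0, 77.6 and 71.3, and rose by 0.58 ± 0.12 while TKL2 rose by 0.91 ± 0.09. YDL023C fell here as well after quantile normalisation, by 1.51 (adjusted p = 0.000842), with a deposited change of -0.90 (adjusted p = 0.0179), and GPD1 fell by 0.49.

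In the sorted PGPD-HAP4 cells dubious ORFs took 0.810% and 0.986% of the reads in low WGA cells, against 0.971% and 0.982% in high WGA cells. YNL143C (chrXIV:356794-357186), which overlaps no listed ORF, took 0.287% and 0.255% in low WGA cells, against 0.0183% and 0.0280% in high WGA cells. Without it the shares were 0.523% and 0.731% in low WGA cells, against 0.953% and 0.954% in high WGA cells, and the fractions no longer overlapped. Without members that overlap an ORF on their own strand the order was the other way round, 0.550% and 0.587% in low WGA cells, against 0.265% and 0.309% in high WGA cells, and without the 5 members with the most reads it was 0.725% and 0.827%, against 0.598% and 0.596%. YNL143C had 23685 and 19404 normalised counts in low WGA cells, against 1585 and 2596 in high WGA cells, and rose by 3.40 ± 0.31 (adjusted p = 0.000104 by limma on deposited values). It also varied between experiments of one age: unsorted wild-type cells on glucose had 5.22, 115 and 1386 in log phase and 11.0, 575, 1246 and 884 at 48 h. The daughter-specific genes summed to 9055 to 9444 RPM in low WGA cells, against 2012 to 2853 in high WGA cells. The genes switched off in diploids summed to 311 to 407, against 109 to 119. In the sorted wild type (1 sample each) the daughter-specific genes did not differ in this way, with 7230 in low and 7731 in high WGA cells. The genes switched off in diploids had 256 and 133 there. The part of either list in the differences between the fractions was not tested. In the low WGA library of replicate E36 a single read was worth 14.6 normalised counts.

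The test of low against high WGA was made on the deposited values, on ORFs with a mean of at least 16 normalised counts. The study judged these profiles unfit for calling single genes across the genome, so the calls are a description of these 4 libraries. Of the 149 members tested, 10 were called higher and 16 lower in low WGA cells, where 16.1% and 15.1% of all ORFs were called. After quantile normalisation 3 were called higher and 8 lower (9.75% and 6.83% of all ORFs). Leaving out a low WGA library (replicate E66 or E36) gave 66 and 62 calls, and leaving out a high WGA library gave 14 and 17. Members with neither an own-strand overlap nor an own-strand ORF ending within 300 bases upstream had a median difference of 1.06 (58 members), those with an upstream ORF had -1.27 (39) and those with an own-strand overlap had -0.53 (52). After quantile normalisation these medians were -0.15, -2.23 and -1.0.

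YFL021C-A, 650 bases of which lie opposite GAT1, a transcriptional activator of nitrogen genes, was higher in low WGA cells. It had 160.1 and 233 normalised counts in low WGA cells, against 6.35 and 3.38 in high WGA cells, from 80 reads against 6, and the pooled ratio was 51.7 (95% counting interval 22.7 to 145). GAT1 rose by 1.52 ± 0.26. YGL088W, most of which is snR10, a small nucleolar RNA that guides pseudouridylation of ribosomal RNA, had 1296 and 827, against 69.9 and 76.0, and rose by 3.83 ± 0.35 (adjusted p = 0.000114 by limma). Mature small nucleolar RNAs carry no poly(A) tail, and which RNA gave these reads was not tested.

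The 3 members with the largest falls by the naming rule lie at the 3′ side of genes that fell with them. YBR191W-A had 320.3 and 952 normalised counts in low WGA cells, against 3429 and 4101 in high WGA cells, and fell by 2.76 (adjusted p = 0.0017 by limma) next to 2.62 for RPL21A. YMR304C-A had 1019 and 1809, against 7672 and 6889, and fell by 2.42 while SCW10 fell by 1.84. FYV1, 120 bases after SES1, had 14.6 and 43.9, against 221 and 353, and fell by 3.47 while SES1 fell by 1.82; its lower value is 1 read. All 3 were separate between the fractions, as the naming rule required, and kept their direction after quantile normalisation.

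**Figure D5:**
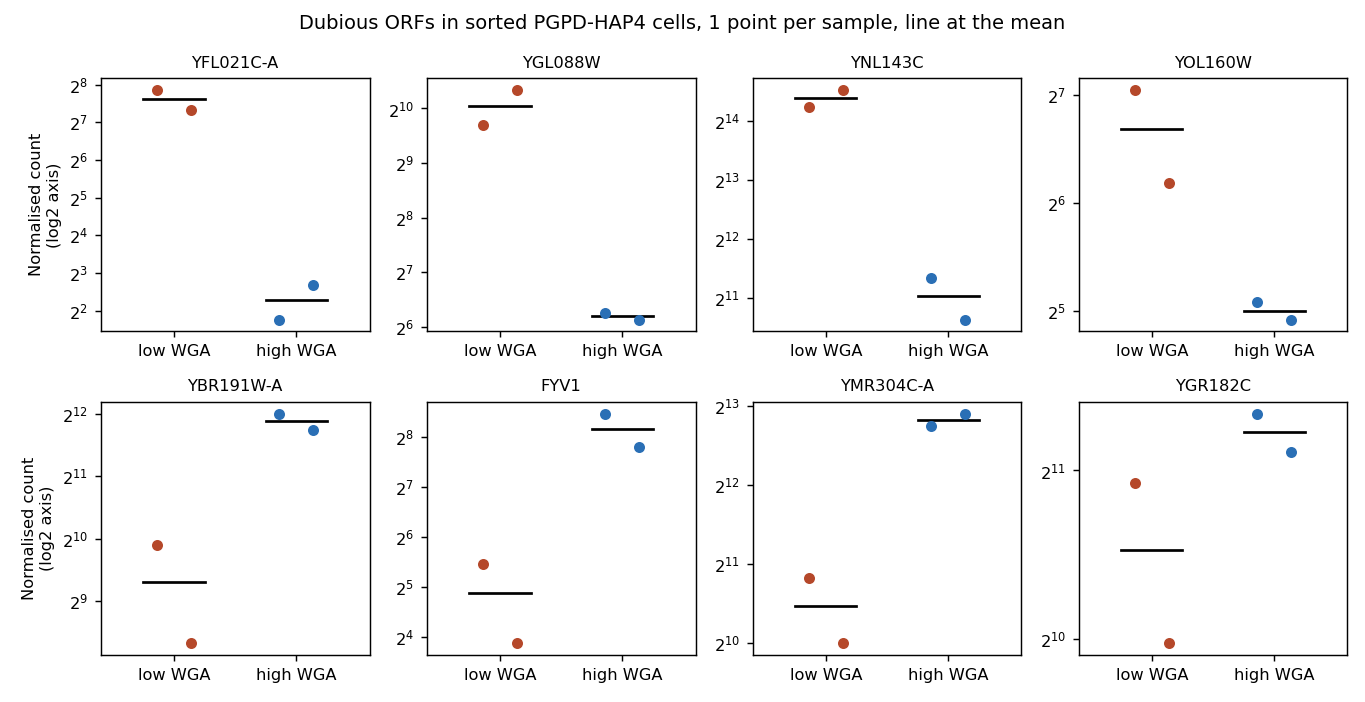
Normalised counts (log2 axis, a separate range in each panel) of 8 dubious ORFs in PGPD-HAP4 cells aged 48 h on glucose and sorted by WGA, low (left in each panel, 2 samples) and high (right, 2 samples); points are samples and lines are means. YFL021C-A, YGL088W and YNL143C are higher and YBR191W-A, FYV1 and YMR304C-A lower in low WGA cells on both scales; YOL160W and YGR182C are shown because they rose with age on glucose.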

How the data were processed

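Yeast poly(A)+ RNA was sequenced, strand-specific and single-end (75 bases). Per the labels and the study's methods, the authors used bcl2fastq 1.8.4, Trim Galore 0.6.6 and HISAT2 2.1.0 on R64-1-1 with the 2 micron plasmid, counted the reads antiparallel to each ORF with SeqMonk, and deposited log2 counts scaled by size factors, with 0 reads placed at 0.9 of 1 read. Whole reads were recovered for 100% of the values in every sample, so depth is known from the files. The 4 tables were used, and other per-sample columns numbered 0.

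Members were found from the annotation and coordinates in the tables. The members and lists were chosen with earlier results of these data known. Each comparison was fitted across all nuclear ORFs with limma 3.58.1 in R 4.3.3 (empirical Bayes with trend, Benjamini-Hochberg adjusted p under 0.01), after quantile normalisation as in the study, or as deposited for the sorted fractions, on ORFs with a mean of at least 4 normalised counts (16 for the fractions). limma was chosen because the deposited values are not raw counts. Adjusted p-values are two-sided. The code was tested on simulated data. Sequences are from R64. Shares of single libraries have 95% Wilson intervals and ratios of reads 95% exact intervals, both for counting error only, since reads had no molecular identifiers. Replicates were named by experiment. Names were taken to pair samples where the deviations of at least 3 pairs all correlated above 0.1, which held only between glucose-galactose and galactose-galactose (0.133 to 0.155), where the block changed the count by less than 1.5 times. In the other comparisons pairs ranged from -0.087 to 0.203 over 3 pairs, and with only 2 pairs it was 0.142 on fructose and 0.233 in the sort. Replicate pairs differed beyond sampling noise (lowest chi-square per ORF 2.42 over 69 pairs).

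Named members were those called without overlap between groups, with the largest rises and falls in each class on glucose at 48 h and the 3 largest each way in the other comparisons, together with their neighbours and the members with the most reads for their length. For the difference between glucose and galactose changes, overlap between groups was not considered. IRC9 was named because it overlaps YAK1, a gene deleted in 1 of the strains. YDR118W-A, YGL165C, YBL068W-A, YBR121C-A, YDR157W, YEL068C and YKR047W were named after their values were seen. Other scales, filters, a pseudocount, a fit over all groups, voom on recovered reads, blocks and left-out samples were tried. Shifted samples carry the age log in 1 label, and their 24 h plus 24 h history was taken from their other labels.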

Additional observations from a re-analysis of the deposited data

Results flagged for a closer look

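In groups of 4 glucose samples, 88 sets of values were examined for a sample far from the other 3, and 8 had one, where chance gives about 1 in 20. Replicate lane6854 at 48 h was far from the others for FYV1 (65.2 normalised counts, below the rest), IRC9 (358), YML089C (17.6) and YPR160W-A (144), which were above the rest. Replicate E30_1 was above the rest for YPL250W-A at 48 h (45.8) and at 24 h (54.1), and for the reads of 13 members as a percent of their opposite-strand partners at 48 h (0.404%). Replicate E34 was above the rest for YMR013C-A at 24 h (57.3).

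The change from log phase to 48 h differed between glucose and galactose, by a limma test of the difference on quantile-normalised values, for 14 members. It was higher on glucose for YML089C (3.90), YFR052C-A (2.81), YGR182C (1.72) and YMR103C (1.68). It was lower on glucose for YDR344C (-2.48), FYV1 (-1.61), YOL099C (-1.39), YHR073W-A (-1.36), YKR047W (-1.36), YDR157W (-1.33), YBL068W-A (-1.22), YBR121C-A (-1.12), YBR191W-A (-1.04) and YEL068C (-0.89). For YOL099C the difference was -0.45 on the deposited values and 0.00 in RPM.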

How the results depend on the processing

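The scale decided most of the counts. On the deposited values the members called were 83 (glucose 48 h), 45 (glucose 24 h), 47 (fructose), 18 (glucose against galactose change), 109 (glucose-glucose over log phase), 42 (galactose-galactose over log phase) and 30 (glucose-galactose over galactose-galactose), with more higher than lower in each, the other way round from quantile-normalised values. In RPM they were 138, 81, 75, 42, 156, 44 and 44, with 13 on galactose, 4 for glucose-glucose over galactose-glucose and 18 for low over high WGA, and quantile normalisation gave 11 for low over high WGA. In RPM the calls of all ORFs leaned to higher too (61.3% higher and 8.08% lower on glucose at 48 h). YOL099C on glucose turned to 0.32 on the deposited values and 0.89 in RPM, and its difference between sugars became 0.00. Of 47 named results, 11 kept their direction and their side of the threshold in every alternative; of 731 alternative values 3 turned round and 171 no longer passed.

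With no filter the counts were 5 on galactose, 24 on fructose, 0 for glucose-glucose over galactose-glucose, 7 for glucose-galactose over galactose-galactose and 52 for the sort. With a replicate block they were 28 (glucose 24 h), 1 (galactose), 24 (glucose-glucose over galactose-glucose) and 45 (sort), and the block changed no other count by over 1.5 times. A minimum of 2-fold gave 5 on galactose, 16 for galactose-galactose over log phase and 8 for glucose-galactose over galactose-galactose. Without a trend they were 10 (galactose), 1, 18 (early sugar with glucose and with galactose second) and 26 (sort), and 1 fit over all groups gave 32 (galactose), 33 (difference between sugars), 19 (glucose-glucose over galactose-glucose) and 43 (sort). Leaving out members with a same-strand overlap gave 4, 36, 9, 26, 12 and 13 for galactose, fructose, the difference between sugars, galactose-galactose over log phase, glucose-galactose over galactose-galactose and the sort. The balance of higher and lower calls also turned round for galactose with no filter, a 2-fold minimum, no trend, 1 fit or no same-strand overlaps, and for the sort with no filter, no trend, RPM or no same-strand overlaps. The cause was not tested, other than that fewer samples or ORFs enter some fits.

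Leaving out 1 sample at a time gave 87 to 101 calls (glucose 48 h), 34 to 46 (24 h), 0 to 13 (galactose), 0 to 12 (fructose), 8 to 26 (difference between sugars), 112 to 137 and 24 to 40 (glucose-glucose and galactose-galactose over log phase), 0 to 16 and 16 to 24 (early sugar with glucose and with galactose second) and 14 to 66 (sort). The calls were then more higher than lower on fructose without the log phase sample of lane6854 (12), and for galactose-galactose without the log phase sample of E53 (24) or E53_2 (25).

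The deposited median changes of members with and without an opposite-strand overlap became, on quantile-normalised values, -1.04 and -0.40 (glucose 48 h), -0.50 and -0.18 (galactose), -1.02 and -0.44 (fructose), -1.13 and -0.36 (glucose-glucose) and -0.47 and -0.12 (galactose-galactose). With a filter on log phase they were 0.26 and 0.37 on glucose, 0.31 for the first class on fructose, and 0.38 and 0.50 for glucose-glucose; with no filter 0.37 for the second class on glucose, 0.18 and 0.35 on fructose, and 0.10 for the second class in galactose-galactose. Without same-strand overlaps the second class had 0.96 on glucose, 0.83 on fructose and 0.94 for glucose-glucose, and against log phase of the first medium glucose-galactose had 0.59. Left-out samples moved these medians between 0.45 and 0.67, and 0.54 and 0.68 (glucose), 0.21 and 0.37, and 0.20 and 0.45 (galactose), 0.36 and 0.56, and 0.43 and 0.63 (fructose), 0.55 and 0.66, and 0.59 and 0.74 (glucose-glucose), and -0.01 (without the galactose log phase sample of E53_3) and 0.28, and 0.17 and 0.23 (galactose-galactose).

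The ratio of read shares, aged over log phase, became 1.85 without same-strand overlaps and 1.84 without the 5 members with the most reads on glucose, 1.23 and 1.35 on galactose, 1.69 and 1.78 on fructose, 2.19 and 2.12 for glucose-glucose and 1.05 and 1.27 for galactose-galactose; for low over high WGA it was 1.98, 1.30 and, without YNL143C, 0.66. Left-out samples moved it between 1.50 and 1.56 (glucose), 1.06 and 1.27 (galactose), 1.51 and 1.55 (fructose), 1.52 and 1.77 (glucose-glucose), 1.10 and 1.12 (galactose-galactose) and 0.83 and 1.01 (low over high WGA). Of the 641 members, 255 passed the filter on low values.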
